A study of Mus musculus with 12 samples.

Results

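The enzymes that build cholesterol and long-chain fatty acids, with the proteins that control them, were followed in cultured mouse neurospheres. A list of 30 genes was taken, 22 of the sterol pathway and 8 of fatty acid synthesis, and every probe annotated to 1 of these symbols was used. That gave 31 probes for 28 genes among 21738 probes on the array, 21 probes for 20 sterol genes and 10 probes for the 8 fatty acid genes. No probe was matched to Acat2 or Hmgcs1. Counted among the sterol genes were Insig1, Srebf1 and Srebf2, which control synthesis, and Stard4, which transports sterol. Srebf1 acts on both pathways and was counted with the sterol genes only. Probes with at least 2 values in each of the 4 groups could be tested, which held for 9155 probes and for 21 of the 31, 16 sterol and 5 fatty acid probes. The other 10 probes (Idi1, Tm7sf2, Hsd17b7, Stard4, Fasn, Scd1, 3 for Acaca and 1 of the 2 for Srebf2) are given by their values.

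Neurospheres are balls of neural stem cells and their progeny that float in culture. Those studied came from the cortex of mouse embryos of gestational day 12.5, and all 4 groups grew without serum, on EGF, basic FGF and LIF. There were 3 arrays in each of 4 groups: prominin and control cultures at 108 h, and prominin and control cultures at 24 h. The adenovirus given to prominin cultures carried CD133/R-prominin1, a membrane protein of cell protrusions used to mark neural stem cells. The sample entries list plain growth medium for controls, but the series design names GFP or prominin positive neurospheres as the Cy5 samples, so virus and prominin-1 cannot be told apart. Times were taken from the titles, since the treatment entries of all 6 prominin samples, the early ones included, name 108 h. Each array set 1 neurosphere RNA (Cy5) against RNA of whole C57/Bl6 embryos of gestational day 12 (Cy3). The labels do not say that replicates came from separate cultures, so a p-value measures only the spread between these samples.

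All values are log2 ratios of neurosphere to whole-embryo RNA, in which 1 is a doubling, centred so that 0 is the midpoint (median) of the 4532 probes with a value on all 12 arrays. Which channel is on top is not stated in the labels, and sample over embryo was assumed. Such a ratio is not an abundance: a high value says that a probe was brighter in neurospheres relative to the embryo than the median probe was. Prom1 itself had values on 9 arrays: −0.11 and −0.85 in prominin and −2.51, −2.33 and −4.34 in control cultures at 108 h, then −1.62 and −0.45 in prominin and 1.72 and 0.66 in control cultures at 24 h. At 24 h it thus lay lower on the arrays labelled prominin, against their label, with a limma adjusted p of 0.998 for the difference of −2.23 and 0.717 for that of 2.58 at 108 h. Whether the probe reads the viral transcript is not given in the sources used here. Prominin and control below stand for arrays so labelled. Measured probes numbered 15944 to 16598 per array at 108 h, against 10404 to 14465 at 24 h, and ratios of small whole numbers, as dim spots give, made up 7.89 to 12.5% of values at 108 h and 43.1 to 56.5% at 24 h. Of the cell markers, the median of 11 neural stem and radial glia probes was 3.35 ± 0.55 over the 12 arrays (SD), above 0 on each, and that of 5 neuron probes −1.89 ± 0.63, below 0 on each. Medians of 4 astrocyte probes (6.52 ± 0.67) and 4 oligodendrocyte lineage and myelin probes (4.21 ± 1.17) were higher still, also above 0 on each array. Within the stem list, probe means ran from −1.51 (Hes1, 9 arrays) to 7.59 (a Pax6 probe, 9 arrays). Correlations between arrays ran from 0.604 to 0.783 within groups and from 0.552 to 0.781 between groups.

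Cholesterol is made from acetyl-CoA through mevalonate and isoprenoid units to squalene, lanosterol and finally cholesterol. Fatty acid synthesis draws on the same acetyl-CoA, which is carboxylated, built into saturated chains, elongated and desaturated. Genes of either arm are switched on by sterol regulatory element binding proteins, Srebf2 mainly for the sterol arm and Srebf1 mainly for the fatty acid arm, and Insig proteins hold these factors in the endoplasmic reticulum when sterols are plentiful. Brain cells make nearly all of their own cholesterol, and progenitors need membrane lipid to divide.

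Promoters of the members are shown here because the genes are held to share control through these factors and their partners NF-Y, which binds CCAAT, and Sp1, which binds GC boxes. Promoters of 300 bases around the start were found for 18 sterol genes (23 promoters) and 5 fatty acid genes (5 promoters) in RefSeq, build GRCm38.p6. There was none for Fdps, Fdft1, Sqle, Stard4, Scd1, Scd2 and Fads1. CCAAT was found on either strand in 78.3% of the sterol promoters and in 2 of the 5 fatty acid promoters, against 37.4% of all 32851 promoters. The GC box GGGCGG was found in 82.6% of the sterol promoters and in 2 of the 5 fatty acid promoters, against 35.7% of all. The sterol element TCACNCCAC was found in 1 member promoter, that of Hmgcs1 (137 bases before the start), and in 1.24% of all promoters. Forms that differ from it by a letter, as the Srebf2 window below holds, were not counted or marked. The E-box CACGTG was found in promoters of 4 sterol genes and 0 fatty acid genes, against 7.15% of all. The 4 motifs were searched on both strands, and none holds another. Such matches are only letters in a window. Below are the 200 bases before the start, 5′ to 3′ on the gene's strand, of 3 members whose values recur in the comparisons, with each CCAAT and GGGCGG in capitals (ATTGG and CCGCCC where it is read on the other strand). The windows are chr8:64733579-64733778 on the minus strand for Msmo1, chr15:82147069-82147268 on the plus strand for Srebf2 and chr19:10101504-10101703 on the minus strand for Fads2.
Msmo1: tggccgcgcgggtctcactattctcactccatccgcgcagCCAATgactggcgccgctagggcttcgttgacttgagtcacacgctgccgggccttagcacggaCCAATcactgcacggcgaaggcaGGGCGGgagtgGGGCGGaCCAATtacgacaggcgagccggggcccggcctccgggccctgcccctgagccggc
Srebf2: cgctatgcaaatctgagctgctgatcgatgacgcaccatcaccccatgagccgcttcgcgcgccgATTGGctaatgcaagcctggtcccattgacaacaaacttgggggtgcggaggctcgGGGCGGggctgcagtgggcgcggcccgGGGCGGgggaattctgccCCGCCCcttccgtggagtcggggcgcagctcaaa
Fads2: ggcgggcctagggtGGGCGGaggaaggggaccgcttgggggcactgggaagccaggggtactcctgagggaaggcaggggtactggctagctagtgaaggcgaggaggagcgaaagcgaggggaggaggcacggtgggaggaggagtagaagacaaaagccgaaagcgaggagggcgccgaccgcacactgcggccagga
The Msmo1 window held 3 CCAAT and 2 GC boxes, the Srebf2 window 1 and 3, and the Fads2 window 0 and 1.

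Against whole-embryo RNA, sterol genes as a set sat near the median probe of neurospheres and fatty acid genes above it, whereas without centring both sets lay below 0 (−1.46 and −0.43 in the medians over arrays). Averaged over the arrays that measured them, 12 of 21 sterol probes and 8 of 10 fatty acid probes lay above 0, with medians of 0.17 and 1.16. Among the tested members alone, 10 of 16 sterol and 4 of 5 fatty acid probes lay above 0, with medians of 0.225 and 1.135. Over all tested probes 55.79% lay above 0, with a median of 0.23. If the embryo channel were on top, every sign and the order of the sets would turn. As read, 11 neural stem probes had a median of 3.35 and 4 liver and yolk sac probes one of −6.10. Taking only probes measured on all 12 arrays, the 13 sterol probes had a median per array of 0.14 ± 0.34 (SD, n = 12 arrays) and the 4 fatty acid probes (Scd2, Fads1, Fads2 and Acly) 1.18 ± 0.77. The sterol median minus the fatty acid median was −1.03 ± 0.80 and lay below 0 on 11 of the 12 arrays, the exception being control replicate 1 at 24 h with 0.54. These set medians over the 12 arrays are descriptions and carry no test. In cultures of mixed cells, fewer cells of a type and less RNA per cell cannot be told apart.

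**Figure D1:**
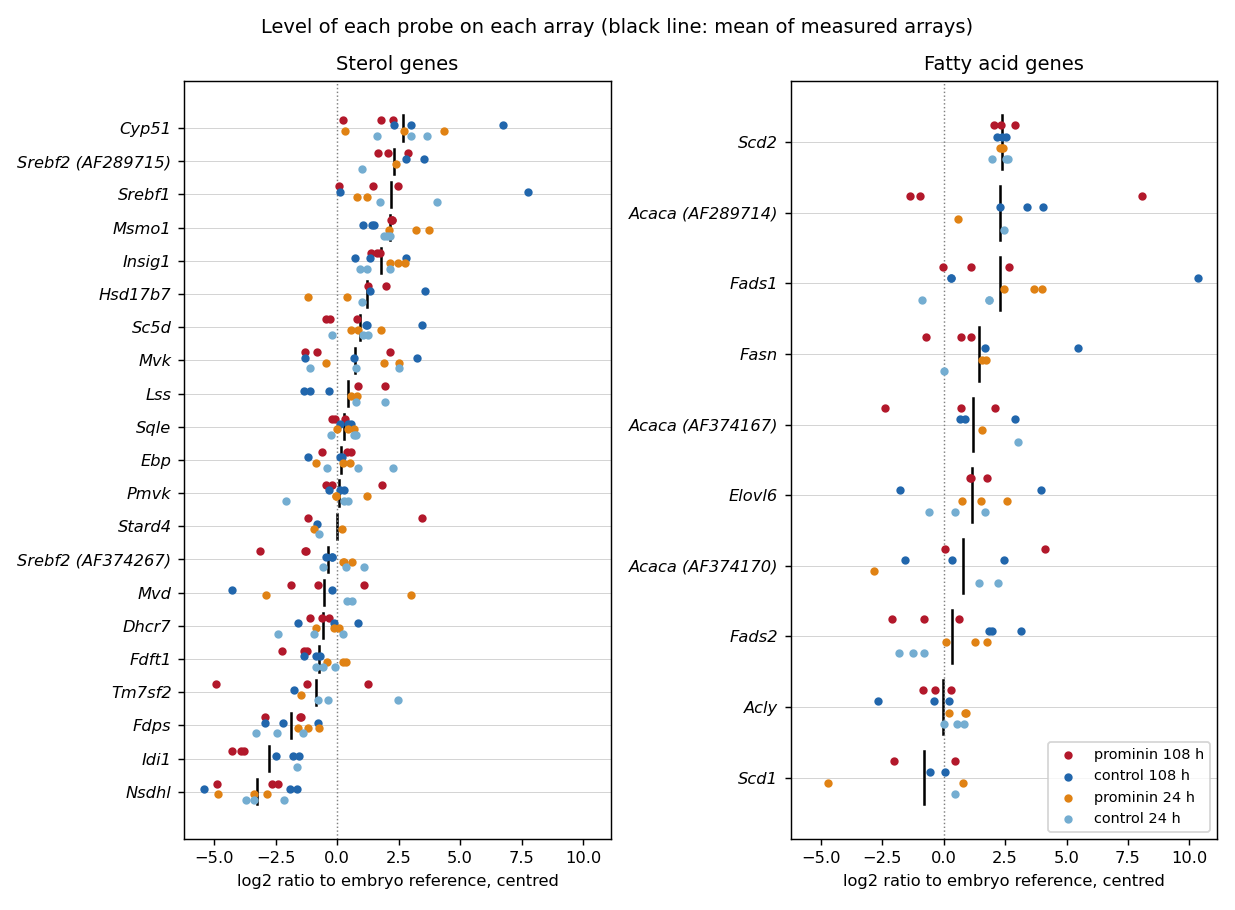
Centred log2 ratio to the whole-embryo RNA of each of the 21 sterol probes and 10 fatty acid probes on each array (points, coloured by group), with the mean of the measured arrays as a black line and 0 as the median probe after centring. Sterol means run from −3.27 (Nsdhl) to 2.67 (Cyp51) and fatty acid means from −0.79 (Scd1) to 2.38 (Scd2), and Fads1, Srebf1 and Acaca spread far wider than Scd2 or Sqle.

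**Figure D2:**
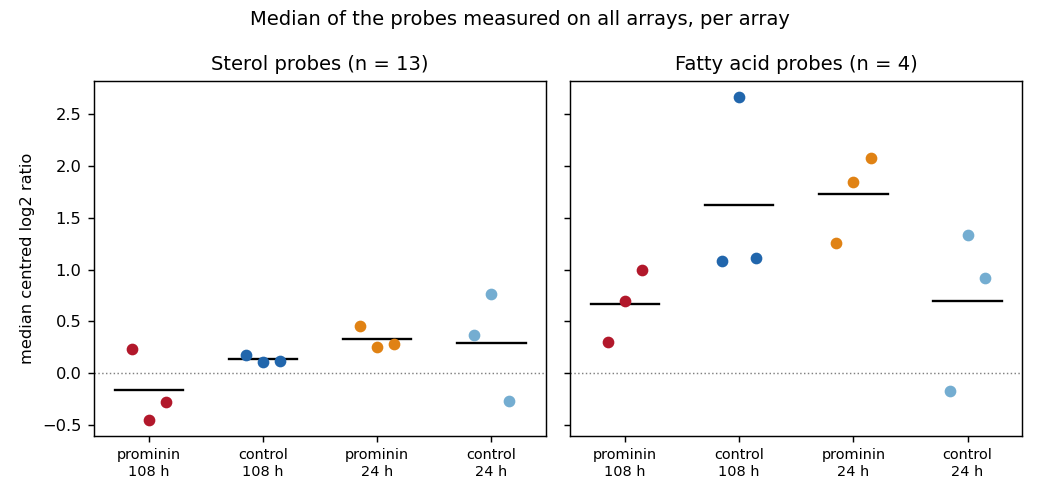
Median centred log2 ratio of the 13 sterol probes (left) and the 4 fatty acid probes (right) measured on all arrays, per array (points) with the group mean (line). Sterol medians lie between −0.45 and 0.76, and fatty acid medians between −0.18 and 2.67 with control replicate 2 at 108 h the highest.

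In the mevalonate arm, which ends in farnesyl diphosphate, ratios were low or near 0. Mvk (mevalonate kinase) averaged 0.73 ± 1.69 (SD, n = 12), Pmvk (phosphomevalonate kinase) 0.08 ± 0.95 and Mvd (mevalonate diphosphate decarboxylase) −0.55 ± 2.20 on 9 arrays. Fdps (farnesyl diphosphate synthase) averaged −1.88 ± 0.87 and lay below 0 on all 12 arrays. Idi1 (isopentenyl diphosphate isomerase) was measured on 7 arrays, with a mean of −2.78 ± 1.19, and was below 0 on each.

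From squalene onward the probes split. Cyp51 (lanosterol demethylase, 2.67 ± 1.77) and Msmo1 (methylsterol monooxygenase, 2.14 ± 0.73) lay above 0 on all 12 arrays. Both take part in removing methyl groups from lanosterol, and Nsdhl, a dehydrogenase that takes part in it too, lay below 0 on all 12 (−3.27 ± 1.24). Between them came Hsd17b7 (a sterol ketoreductase, 1.20 ± 1.45, n = 7), Sc5d (a sterol desaturase, 0.94 ± 1.05), Lss (lanosterol synthase, 0.46 ± 1.18, n = 9) and Sqle (squalene epoxidase, 0.28 ± 0.36). Ebp (a sterol isomerase, 0.17 ± 0.90) lay closest to 0. Below 0 were the means of Dhcr7 (the last reductase of the pathway, −0.58 ± 0.88), Fdft1 (squalene synthase, −0.76 ± 0.74) and Tm7sf2 (a sterol reductase, −0.85 ± 2.20, n = 8). The SDs of Ebp, Lss, Sqle and Sc5d overlap, so no order among these neighbours is read.

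Of the control and transport genes, Insig1 averaged 1.77 ± 0.70 and lay above 0 on all 12 arrays. Srebf1 averaged 2.19 ± 2.42 on 9 arrays, from 0.07 to 7.74, with the highest value on control replicate 2 at 108 h. The 2 Srebf2 probes disagreed: the one measured on all arrays averaged −0.38 ± 1.12, and the other 2.33 ± 0.84 on 7 arrays, above 0 on each. Stard4, which carries sterol between membranes, averaged −0.02 ± 1.76 on 6 arrays.

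Among fatty acid genes, Scd2, the stearoyl-CoA desaturase form best known from brain, had the steadiest ratio of the 21 tested members. It read 2.89, 2.04 and 2.33 in prominin and 2.55, 2.17 and 2.36 in control cultures at 108 h, then 2.31, 2.43 and 2.38 in prominin and 2.56, 2.60 and 1.98 in control cultures at 24 h, a mean of 2.38 ± 0.25. Its residual SD of 0.29 within groups was undercut by 0.994% of tested probes, and the difference between prominin and control cultures was 0.06 (SE 0.50) at 108 h and −0.01 (SE 0.50) at 24 h. All 3 control values at 24 h were ratios of small whole numbers. Sqle was next among the members with a residual SD of 0.38 (3.18% of probes lower), whereas Fads1 had 3.11 (99.1% lower). The median residual SD was 0.90 over the sterol probes, 0.92 over the fatty acid probes and 1.19 over all tested probes.

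Fads1 and Fads2 encode the desaturases of polyunsaturated fatty acids, and they averaged 2.30 ± 2.94 and 0.33 ± 1.70. Elovl6, which lengthens saturated chains, averaged 1.14 ± 1.51 on 11 arrays, and Acly, the enzyme that makes cytosolic acetyl-CoA from citrate, −0.03 ± 0.99. Fasn, the fatty acid synthase, averaged 1.45 ± 1.84 on 8 arrays. The 3 probes for Acaca (acetyl-CoA carboxylase) averaged 2.31 ± 3.04, 1.19 ± 1.72 and 0.78 ± 2.26 on 8 arrays each. Scd1, the sister desaturase of Scd2, had −0.79 ± 1.97 on 7 arrays.

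At 108 h no member passed the test between prominin and control cultures. A moderated linear model across all 9155 probes (limma, Benjamini-Hochberg adjusted p under 0.05) called 0 of the 21 members, with 0.0% of all probes called. At an unadjusted p under 0.05 it counted 4 of 21 members (Fads2, Lss, Sc5d and Srebf2), 19.0% of them, where the share over all probes was 6.82%. Sterol probes lay higher in prominin cultures in 5 cases and lower in 11, with a median difference of −0.34, and fatty acid probes higher in 3 and lower in 2 with a median of 0.06. The median over all probes was 0.00. The fatty acid median turned to −1.18 over the 4 probes measured on all arrays and to −2.62 without control replicate 1, and was 0.91 without control replicate 2. Prominin and control arrays did not overlap for 6 of 21 members, 28.6% of them against 15.8% of all probes: Lss and Msmo1 lay higher, and Sc5d, Srebf2, Cyp51 and Fads2 lower, in prominin cultures.

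Fads2 had the smallest p. It read 0.64, −2.11 and −0.81 in prominin cultures, against 1.86, 3.16 and 1.95 in control cultures. Every prominin array lay below every control array. The difference was −3.08 (SE 0.78, limma adjusted p = 0.655), and a two-sided exact permutation test gave 0.1, the smallest p that 3 against 3 arrays allow.

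Lss was measured on 2 prominin arrays, at 0.84 and 1.96, against −0.32, −1.09 and −1.35 in the 3 control cultures. It lay above 0 on both prominin arrays and below 0 on every control array. The difference was 2.32 (SE 0.74, limma adjusted p = 0.717, exact p = 0.1). Sc5d read 0.82, −0.45 and −0.28 in prominin cultures, against 1.17, 3.43 and 1.23 in control cultures. All prominin values were lower than all control values (a difference of −1.91, SE 0.76, limma adjusted p = 0.717, exact p = 0.1), and the value was −1.17 without control replicate 2.

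The Srebf2 probe with values on all arrays read −3.13, −1.26 and −1.29 in prominin cultures, against −0.20, −0.46 and −0.22 in control cultures. The groups did not overlap, and the difference was −1.60 (SE 0.66, limma adjusted p = 0.717, exact p = 0.1), or −0.98 without prominin replicate 1. The other Srebf2 probe, not tested by limma, read 2.87, 2.05 and 1.64 in prominin cultures, against 2.80 and 3.53 in control cultures. Its mean was also lower in prominin cultures, by a difference of −0.97, but the groups overlapped. Insig1, which acts on the protein of this gene, read 1.61, 1.35 and 1.73 in prominin cultures, against 1.32, 0.73 and 2.78 in control cultures, with overlapping groups.

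Fads1 read −0.04, 1.10 and 2.65 in prominin cultures, against 0.31, 10.35 and 0.28 in control cultures. Control replicate 2 stood apart, and its difference of −2.41 (SE 2.18, limma adjusted p = 0.859, exact p = 0.8) rests on that array: without it the value was 0.94. The same array also held the highest values of Cyp51 (6.76), Srebf1 (7.74) and Fasn (5.48). It was the highest control array at 108 h for 9 of 18 member probes, against 35.9% of all probes.

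Idi1 and Fasn could not be tested by limma, since too few 24 h arrays measured them. Idi1 read −3.80, −4.27 and −3.90 in prominin cultures, against −1.54, −2.48 and −1.80 in control cultures, means of −3.99 and −1.94. Every prominin array was lower, with an exact permutation p of 0.1, the smallest possible. Fasn read 1.12, 0.71 and −0.71 in prominin cultures, against 5.48 and 1.70 on the 2 control arrays that measured it, and again the groups did not overlap (exact permutation p = 0.1). Both genes were picked after their values were seen. Of the other untested probes, those for Acaca, Hsd17b7, Scd1 and Srebf2 overlapped at 108 h, and Tm7sf2 and Stard4 had 1 control value each. Over all tested probes 15.8% did not overlap.

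**Figure D3:**
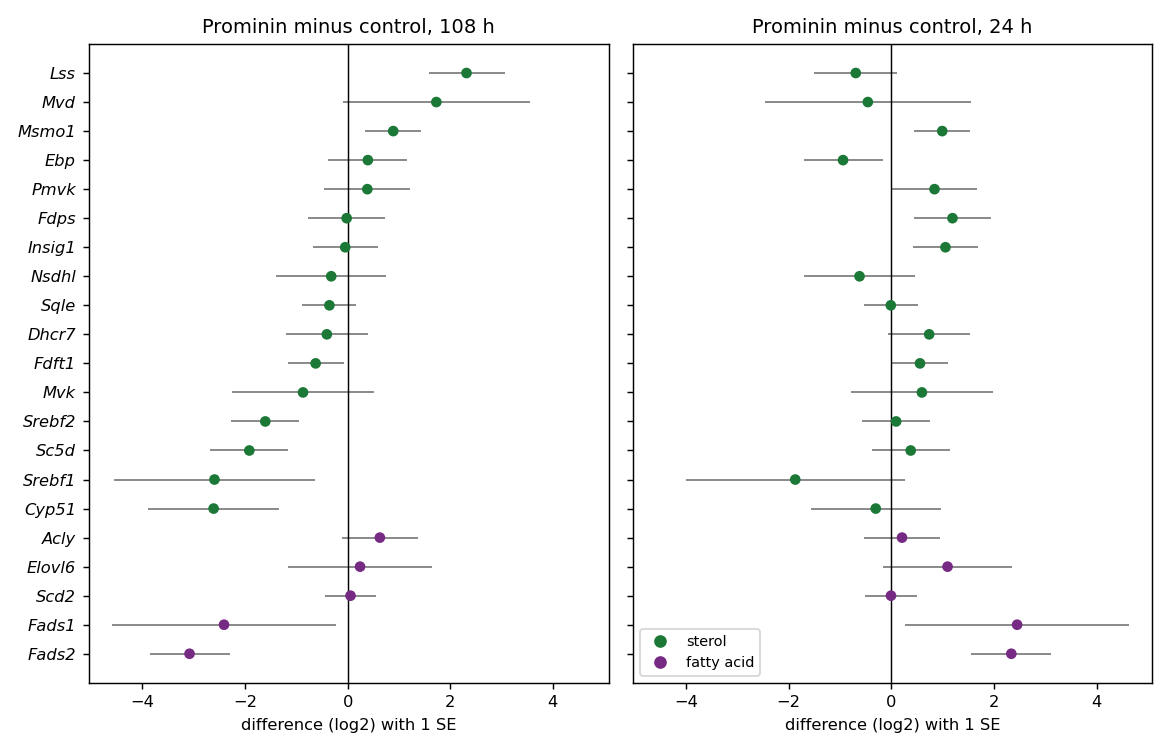
Difference in centred log2 ratio, prominin minus control, for the 21 tested members at 108 h (left) and 24 h (right), with bars of 1 SE from the model, sterol probes in green and fatty acid probes in purple. Fads2 lies at −3.08 at 108 h and 2.34 at 24 h, and Lss at 2.32 at 108 h.

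Markers of other cell types also differed in measured values between these groups, though limma called 0 of the probes given here. All 4 tested probes of an erythroid list lay higher in prominin cultures at 108 h, with a median difference of 1.99, and their median per array ran from −2.81 to −1.90 in prominin cultures and from −5.74 to −4.87 in control cultures. All 4 probes of a liver and yolk sac list also lay higher, with a median difference of 1.22, but the groups were apart for 0 of the 4. The smallest limma adjusted p was 0.717 in the erythroid and 0.725 in the liver list. All 3 fibroblast and meninges probes lay higher (median 0.83), and 3 of 5 neuron probes lay lower, with a median over the 5 of −1.87. Their part in the differences of the members was not tested.

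At 24 h the direction of several members was the other way, and again none passed. limma called 0 of 21 members (0.0% of all probes), and at an unadjusted p under 0.05 counted 1 of 21, Fads2, 4.76% of them beside 4.58% of all probes. Sterol probes lay higher in prominin cultures in 9 cases and lower in 7, with a median difference of 0.23. Fatty acid probes lay higher in 4 and lower in 1, with a median of 1.09, beside −0.10 over all probes. The sterol median turned to −0.029 without control replicate 3 and was 0.48 without prominin replicate 2. The fatty acid median was 0.55 without control replicate 2 and 1.67 without control replicate 3. Groups did not overlap for 4 of 21 members, 19.0% of them beside 16.5% of all probes: Insig1, Fads1 and Fads2 lay higher and Srebf1 lower in prominin cultures.

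Fads2 read 0.10, 1.26 and 1.77 in prominin cultures, against −1.81, −0.81 and −1.25 in control cultures. Every prominin array was above 0 and every control array below it, a difference of 2.34 (SE 0.78, limma adjusted p = 0.998, exact p = 0.1). Its neighbour in the pathway, Fads1, read 2.47, 3.68 and 3.99 in prominin cultures, against −0.90, 1.86 and 1.83 in control cultures. The groups were apart here too, but the difference of 2.45 had an SE of 2.18 (limma adjusted p = 0.998, exact p = 0.1). It was 1.54 without control replicate 1. Of its 12 values 6 were ratios of small whole numbers, the most of any member, against 0 for Fads2.

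Insig1 read 2.17, 2.76 and 2.49 in prominin cultures, against 0.91, 2.15 and 1.20 in control cultures, with the lowest prominin value just above the highest control value. The difference was 1.05 (SE 0.64, limma adjusted p = 0.998, exact p = 0.1). Msmo1 read 3.71, 3.22 and 2.10 in prominin cultures, against 2.02, 2.16 and 1.89 in control cultures, with 1 overlapping pair. Its difference was 0.99 (SE 0.55, limma adjusted p = 0.998, exact p = 0.2). Fdps read −1.60, −0.76 and −1.20 in prominin cultures, against −2.47, −1.37 and −3.29 in control cultures. The groups overlapped, and its difference was 1.19 (SE 0.75, limma adjusted p = 0.998, exact p = 0.2). Msmo1 was 0.64 without prominin replicate 1, and Fdps 0.73 without control replicate 3. Srebf1, measured on 2 arrays of each group, read 1.23 and 0.80 in prominin cultures, against 4.04 and 1.73 in control cultures.

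All 4 liver and yolk sac probes lay lower in prominin cultures at 24 h, with a median difference of −1.71, and 3 of 4 erythroid probes did, with a median of −1.28. Their part in the values of the members was not tested. Within the 24 h controls 1 array led the members. Control replicate 2 was the highest of its group for 14 of 18 member probes, 77.8%, against 33.3% of all probes, and control replicate 1 was the highest for 1 of 18, against 39.3% of all probes.

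The change of the prominin difference between the times was tested as an interaction, 108 h minus 24 h. limma called 0 of 21 members (0.0% of all probes) and at an unadjusted p under 0.05 counted 2, Fads2 and Lss, 9.52% of them beside 5.95% of all probes. Of the sterol probes 4 had a positive and 12 a negative value, with a median of −0.91. Of the fatty acid probes 2 were positive and 3 negative, with a median of −0.85, beside 0.06 over all probes. Without control replicate 2 at 108 h the medians were −0.45 and −0.028. Fads2, whose groups lay apart at both times in opposite directions as did 1.64% of all probes, had a value of −5.42 (SE 1.10, limma adjusted p = 0.634). Lss had 3.01 (SE 1.10, limma adjusted p = 0.817) and Sc5d −2.29 (SE 1.08, limma adjusted p = 0.817). The Srebf2 probe with values on all arrays had −1.70 (SE 0.93, limma adjusted p = 0.817) and Fads1 −4.86 (SE 3.08, limma adjusted p = 0.828). The Fads1 value was −1.50 without control replicate 2 at 108 h, and the Srebf2 value −1.08 without prominin replicate 1 at 108 h. All 4 erythroid probes (median 3.38) and all 4 liver and yolk sac probes (median 3.35) had positive values in the same test, 2 and 3 of them at an unadjusted p under 0.05. Their part in the values of the members was not tested.

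**Figure D4:**
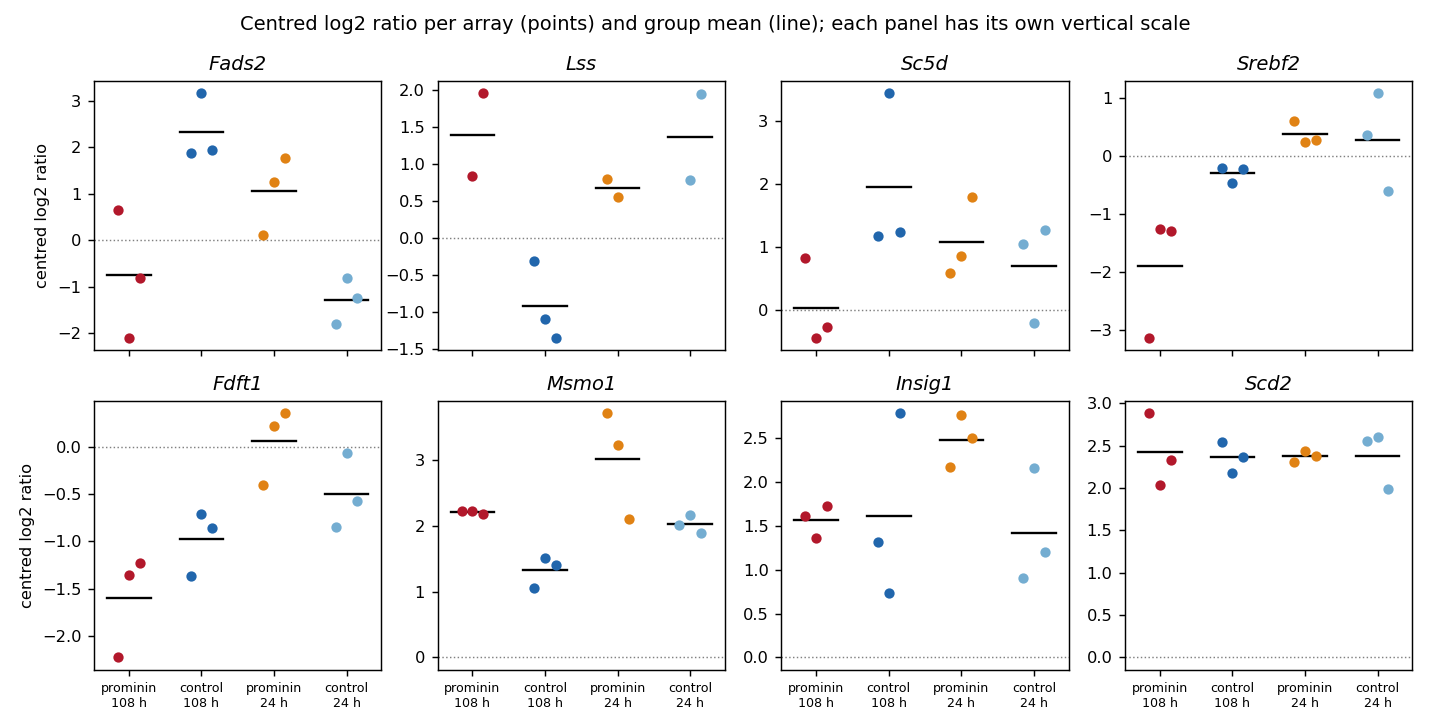
Centred log2 ratio of 8 members on each array (points) with the group mean (line), each panel on its own vertical scale, with the 108 h groups to the left of 24 h groups and prominin to the left of control. Fads2 lies below control in all 3 prominin cultures at 108 h and above it in all 3 at 24 h, and Scd2 stays between 1.98 and 2.89.

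With both times in 1 contrast, the prominin effect again reached the threshold for no member. limma called 0 of 21 members (0.0% of all probes) and counted 1 of 21 at an unadjusted p under 0.05, Msmo1, beside 5.06% of all probes. Sterol probes lay higher in prominin cultures in 7 cases and lower in 9, with a median difference of −0.09. Fatty acid probes lay higher in 4 and lower in 1, with a median of 0.02, beside −0.04 over all probes. The sterol median turned to 0.19 without control replicate 2 at 24 h, and the fatty acid median to −0.49 without control replicate 1 at 108 h. Msmo1 read 2.23, 2.23 and 2.18 in prominin cultures at 108 h, against 1.05, 1.51 and 1.41 in control cultures, with no overlap at that time after centring. Over both times it averaged 2.61 in prominin and 1.67 in control cultures, and the difference was 0.94 (SE 0.39, limma adjusted p = 0.959). A permutation of labels within each time, exact and two-sided, gave 0.01 where 0.005 was the smallest possible. Cyp51 averaged 1.94 in prominin and 3.40 in control cultures, with a difference of −1.46 (SE 0.90, limma adjusted p = 0.959, exact p = 0.18).

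The difference over both times for the Srebf2 probe with values on all arrays was −0.76 (SE 0.47, limma adjusted p = 0.959, exact p = 0.165), or −0.45 without prominin replicate 1 at 108 h. That of Cyp51 was −0.78 without control replicate 2 at 108 h. Those of Acly and Elovl6 were 0.42 (SE 0.53, limma adjusted p = 0.966, exact p = 0.48) and 0.67 (SE 0.94, limma adjusted p = 0.972, exact p = 0.595), and both changed sign when control replicate 1 at 108 h was left out, to −0.014 and −0.77.

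Time was confounded with the dim spots named above, so differences between 108 h and 24 h and differences in spot brightness cannot be told apart. Ratios of small whole numbers made up 8.82% of the members' own values at 108 h and 31.5% at 24 h. Each array enters a prominin comparison and a time comparison, so the differences of these sections share arrays and are not independent of each other.

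In prominin cultures no member passed the test between the times. limma called 0 of 21 members, with 0.0218% of all probes called, and counted 3 of 21 at an unadjusted p under 0.05 (Srebf2, Fdft1 and Fads2), 14.3% of them beside 8.81% of all probes. Sterol probes lay higher at 108 h in 5 cases and lower in 11, with a median of −0.68. Fatty acid probes lay higher in 1 and lower in 4, with a median of −0.97, beside 0.01 over all probes. Groups did not overlap for 4 of 21 members, 19.0% beside 19.6% of all probes: Lss lay higher at 108 h and Srebf2, Fdft1 and Insig1 lower. Lss was measured on only 2 arrays at each time, for which the smallest possible exact permutation p is 0.333.

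The Srebf2 probe with values on all arrays read −3.13, −1.26 and −1.29 at 108 h, against 0.60, 0.25 and 0.28 at 24 h. Every 108 h value was thus below 0 and every 24 h value above it. The difference was −2.27 (SE 0.66, limma adjusted p = 0.303, exact p = 0.1). The other Srebf2 probe, not tested by limma, read 2.87, 2.05 and 1.64 at 108 h, against 2.38 on the 1 array that measured it at 24 h. Fdft1 read −2.23, −1.35 and −1.23 at 108 h, against −0.40, 0.22 and 0.36 at 24 h. The groups lay apart by a difference of −1.66 (SE 0.54, limma adjusted p = 0.374, exact p = 0.1), and none of its values was a ratio of small whole numbers. Fads2 differed by −1.80 (SE 0.78, limma adjusted p = 0.535, exact p = 0.2), Acly by −0.97 (SE 0.75, limma adjusted p = 0.755, exact p = 0.2) and Msmo1 by −0.80 (SE 0.55, limma adjusted p = 0.714, exact p = 0.4), each with overlapping groups. Without prominin replicate 1 at 24 h Msmo1 was −0.45, and without replicate 3 −1.25, and Fads2 was −1.13 without replicate 2 at 108 h. Markers of other cell types differed here too: Hba-a1 of the erythroid list was called, with a difference of 6.19 (limma adjusted p = 0.0122), and the median over its 4 probes was 3.89. All 4 liver and yolk sac probes lay higher at 108 h without overlap, with a median difference of 2.88, and of 3 fibroblast and meninges probes 2 lay higher and 1 lower, each without overlap. Their part in the differences of the members was not tested.

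In control cultures limma called 0 of 21 members (0.0% of all probes) and counted 2 of 21 at an unadjusted p under 0.05, Fads2 and Lss, 9.52% beside 6.94% of all probes. Sterol probes lay higher at 108 h in 9 cases and lower in 7, with a median of 0.11. Fatty acid probes lay higher in 3 and lower in 2, with a median of 0.57, beside −0.06 over all probes. Without control replicate 2 at 108 h the medians turned to −0.55 and −0.64. Groups did not overlap for 4 of 21 members, 19.0% beside 18.6% of all probes: Fads2 lay higher at 108 h, and Lss, Msmo1 and Mvd lower. Mvd was measured on only 2 arrays at each time, for which the smallest possible exact permutation p is 0.333.

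Fads2 in control cultures read 1.86, 3.16 and 1.95 at 108 h, against −1.81, −0.81 and −1.25 at 24 h. The groups fell on either side of 0, a difference of 3.61 (SE 0.78, limma adjusted p = 0.408, exact p = 0.1). Lss read −0.32, −1.09 and −1.35 at 108 h, against 0.78 and 1.95 at 24 h, a difference of −2.29 (SE 0.74, limma adjusted p = 0.617, exact p = 0.1). Sc5d differed by 1.25 (SE 0.76, limma adjusted p = 0.769, exact p = 0.3), Ebp by −1.20 (SE 0.77, limma adjusted p = 0.776, exact p = 0.3) and Acly by −1.39 (SE 0.75, limma adjusted p = 0.741, exact p = 0.2). Leaving out 1 array took Sc5d to 0.50 (without control replicate 2 at 108 h), Ebp to −0.53 (without replicate 2 at 24 h) or −1.86 (without replicate 3 at 24 h) and Acly to −0.53 (without replicate 1 at 108 h).

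Over both cultures together limma called 0 of 21 members between the times (0.0546% of all probes) and counted 3 of 21 at an unadjusted p under 0.05 (Srebf2, Fdft1 and Acly), 14.3% beside 9.7% of all probes. All 3 lay lower at 108 h. Sterol probes lay higher in 6 cases and lower in 10, with a median of −0.28, and fatty acid probes higher in 4 and lower in 1 with a median of 0.14, beside −0.04 over all probes. The fatty acid median turned to −1.29 without control replicate 2 at 108 h. The Srebf2 probe with values on all arrays averaged −1.09 at 108 h and 0.33 at 24 h, a difference of −1.42 (SE 0.47, limma adjusted p = 0.327, exact p = 0.02). The other Srebf2 probe, not tested by limma, averaged 2.58 on 5 arrays at 108 h and 1.70 on 2 arrays at 24 h. Both of those 24 h values were ratios of small whole numbers. Its difference between the times was −0.19 in prominin and 2.14 in control cultures, each with 1 array at 24 h, so no direction is read. Fdft1 averaged −1.29 at 108 h and −0.22 at 24 h, a difference of −1.07 (SE 0.39, limma adjusted p = 0.381, exact p = 0.01). Acly read −0.85, 0.28 and −0.35 in prominin and −2.66, −0.38 and 0.23 in control cultures at 108 h, against 0.21, 0.87 and 0.91 in prominin and 0.54, 0.82 and 0.01 in control cultures at 24 h. Every 24 h value of Acly was above 0 and 4 of its 6 values at 108 h were below, a difference of −1.18 (SE 0.53, limma adjusted p = 0.501, exact p = 0.02). Msmo1 differed by −0.75 (SE 0.39, limma adjusted p = 0.567, exact p = 0.02) and Fads2 by 0.91 (SE 0.55, limma adjusted p = 0.638, exact p = 0.405). Acly was −0.75 without control replicate 1 at 108 h, and Fads2 0.56 without prominin replicate 1 at 108 h.

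The centring took differences between group means out of every comparison: −1.08 between prominin and control cultures at 108 h and 0.68 at 24 h, and, between 108 h and 24 h, −1.06 in prominin and 0.69 in control cultures. For the interaction it took out −1.75. The members' differences are relative to these shifts: without centring a difference in the direction of the shift is larger and one against it is smaller or turned. At 108 h Lss was then 1.42, and 6 of 21 members turned sign between prominin and control cultures, Msmo1 among them (−0.19). At 24 h 5 of 21 turned, in the interaction 4, with time 6 in prominin and 4 in control cultures, and over both times or both cultures 3 and 5. Lss with time in prominin cultures was one of these, at −0.07 in place of 0.73. Scd2 turned in all 7 comparisons, and its steadiness holds relative to the median probe.

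Other genes of lipid handling, from 3 lists, gave the following counts. Of 28 genes of cholesterol uptake, efflux, storage and SREBP control 10 were tested, of 23 further genes of fatty acid synthesis and activation 16, and of 15 genes of fatty acid oxidation 10. At 108 h, 3 of 10, 4 of 16 and 3 of 10 lay higher in prominin cultures, with median differences of −0.53, −0.33 and −0.32. At 24 h these were 6 of 10, 9 of 16 and 6 of 10, with medians of 0.26, 0.07 and 0.18. Together 27.8% of these 36 genes lay higher in prominin cultures at 108 h and 58.3% at 24 h, beside 50.1% and 46.0% of all probes. limma called 0 of the 36 at either time. At an unadjusted p under 0.05 it counted 2 at 108 h (5.56%, beside 6.82% of all probes) and 3 at 24 h (8.33%, beside 4.58%). It also called 0 in the interaction, in either time comparison and in the prominin comparison over both times, and 1 with time over both cultures. Scarb1, a receptor for high density lipoprotein, had a difference of −3.13 at 108 h (limma adjusted p = 0.669) and 2.59 at 24 h (limma adjusted p = 0.998), the same pair of directions as Fads2. Cpt1a, which admits fatty acids to mitochondria for oxidation, had −3.32 at 108 h (limma adjusted p = 0.655) and −1.53 at 24 h (limma adjusted p = 0.998). Both genes are extremes of their lists. Scarb1 had the lowest difference of its list at 108 h and the highest at 24 h, and Cpt1a the lowest of the oxidation list at either time.

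A single gene of these lists passed the test. Apoe, the main carrier of cholesterol between brain cells, read 0.68, 0.70 and 1.17 in prominin and 1.76, 1.47 and 1.01 in control cultures at 108 h, against −1.14, −1.52 and −1.57 in prominin and −2.00, −0.90 and −1.46 in control cultures at 24 h. All 6 arrays at 108 h lay above 0 and all 6 at 24 h below it. Over both cultures it rose by 2.56 on the log2 scale (SE 0.37, limma adjusted p = 0.0409). The call was lost when any 1 of the 12 arrays was left out, with adjusted p between 0.0683 and 0.155. Under 11 other alternatives of processing it was called in 6, with a limma adjusted p of up to 0.239.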

How the data were processed

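RNA of 12 neurosphere samples was measured on 2-colour mouse oligonucleotide arrays (3 per group, groups and times from the titles). Per the labels, RNA was extracted with Trizol and RNeasy columns and labelled by 3DNA dendrimers, sample with Cy5 and embryo reference with Cy3, with no dye swap. The deposited table of the authors was read as log2 ratios. What scanner, background correction and normalization were used is not stated in the labels. Exact 0 and 16.61 were taken as codes and set to missing. An exact 0 can also be an equal ratio, so some true values may have been lost. From every array the median over 4532 probes with values on all 12 arrays was subtracted, since array medians ran from −2.59 to −0.84.

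Probes with at least 2 values per group (9155 of 21738) were fitted with limma 3.58.1 in R 4.3.3, with 1 mean per group, 7 contrasts, moderated variance and Benjamini-Hochberg adjustment over all tested probes, at a threshold of 0.05. Single probes also had two-sided exact permutation tests. The number of arrays limits the precision. Gene names came from the platform annotation, which can be old: 16620 probes had 1 symbol, 113 several and 5005 none. Differences are given for the 3 sterol and 2 fatty acid probes with the smallest p in each comparison, and Scd2, Idi1, Fasn and Srebf1 were added after their values were seen. Scarb1 and Cpt1a, the extremes of their lists, and the Insig1 values at 108 h also stand outside that rule. Members and lists were chosen with earlier results of these data known. The fit was tested on simulated data. Alternatives covered centring, quantile normalization, the codes, small whole-number ratios (2 whole numbers up to 10, within 0.005), filters on missing values, averaging to genes, a variance trend, array weights, a replicate block and each array left out.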

Additional observations from a re-analysis of the deposited data

Results flagged for a closer look

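Fads2 differed in direction between the times. It lay above control on every prominin array at 24 h and below control on every prominin array at 108 h, and the prominin difference at 108 h minus that at 24 h was −5.42 (limma adjusted p = 0.634), which did not pass. None of its 12 values was a ratio of small whole numbers.

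Lss differed in its change with time between the cultures. On the arrays that measured it, every 108 h value lay above every 24 h value in prominin cultures and below every 24 h value in control cultures, with 2 arrays in each of 3 groups and 3 control arrays at 108 h. The difference between these changes was 3.01 (limma adjusted p = 0.817), which did not pass (1.63 without centring, where its change in prominin cultures was −0.07), and 4 of its 9 values were ratios of small whole numbers.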

How the results depend on the processing

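No member was called in any of the 7 comparisons under any of the 24 alternatives, with a smallest adjusted p of 0.0871 (Srebf2 with time in prominin cultures, no centring). Of 829 repeats of the 35 named differences, 826 kept their direction and their side of the threshold and 3 changed sign, all on leaving out 1 array. That count was partly fixed in advance. All 35 were uncalled to begin with, and a variance trend or leaving out an array of another group cannot change a difference. Over all 24, Fads2 ran from −4.16 to −2.41 at 108 h and from 1.97 to 3.01 at 24 h, and its interaction from −7.17 to −4.74 (adjusted p 0.114 to 0.905).

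The set medians moved more. Without centring the sterol median was −1.41 at 108 h, 0.91 at 24 h, −2.79 for the interaction, −1.79 with time in prominin and 0.80 in control cultures, and the fatty acid median −1.02 at 108 h, −2.68 for the interaction and −2.03 with time in prominin cultures. Levels were then −1.46 for sterol and −0.43 for fatty acid probes. Centred on all measured probes, the sterol median was 0.56 at 24 h, −1.25 for the interaction and −1.05 with time in prominin cultures, and the level −0.41. Without small whole-number ratios these sterol values were 0.54, −1.19 and −0.88, and the fatty acid median over 2 probes was −1.23 at 108 h and −2.69 for the interaction. On probes measured on all arrays, the sterol median was 0.56 at 24 h and −1.14 for the interaction, and the fatty acid median −1.18 and −2.40 at 108 h and for the interaction. Array weights gave −0.59 for the sterol interaction. The cause of these shifts was not tested beyond the construction of each setting.

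Leaving out 1 array at a time, the fatty acid median ran from −2.62 to 0.91 at 108 h, −3.72 to −0.028 for the interaction, −0.64 to 3.44 with time in control cultures and −1.29 to 1.02 over both, each end set by control replicate 1 or 2 at 108 h. The sterol median ran from −0.029 to 0.48 at 24 h, −1.15 to −0.45 for the interaction, −0.55 to 0.14 with time in control cultures, −0.60 to −0.13 over both and −0.15 to 0.19 for prominin over both times. Over both times Acly ran from −0.014 to 0.71 and Elovl6 from −0.77 to 2.10, and Fads1 at 108 h from −4.09 to 0.95.

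Same-numbered replicates correlated between −0.0473 and 0.122 in their deviations. Between prominin and control cultures the values ran from 0.024 to 0.0934 at 24 h and from 0.0497 to 0.122 at 108 h. Between the times they ran from −0.0262 to 0.0522 in prominin and from −0.0473 to 0.0789 in control cultures. Whether the numbers pair the samples was not tested. With the replicate block 0 members were called, the fatty acid median at 108 h was −0.18, and all-probe calls with time over both cultures were 2 in place of 5. Over the alternatives, all-probe calls ran from 0 to 31 at 24 h (0 as reported), 0 to 17 for the interaction (0), 0 to 19 with time in control cultures (0), 0 to 21 in prominin cultures (2), 0 to 21 for prominin over both times (0) and 2 to 48 with time over both (5).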
